A study of Mus musculus with 4 samples.

Results

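The interferon response and RNA sensing genes are 39 genes, chosen by name with earlier results of these data known. They cover the receptors and kinases of type I interferon signalling, the sensors of double-stranded RNA, the interferon regulatory factors and a set of interferon-stimulated genes. They were examined in polyadenylated RNA from NIH/3T3 cells, an immortalised line of mouse fibroblasts, 48 h after transfection with Lipofectamine 3000 and siRNA at 10 nM. KD cells received 2 siRNAs against *Setd2*, and WT cells received a Scrambled siRNA. *Setd2* encodes the methyltransferase that places the trimethyl mark on lysine 36 of histone H3 along transcribed gene bodies. There were 2 libraries in each group, and cells without siRNA were not among the libraries. Of the 39 genes, 36 had a tested transcript and together had 64 of the 34200 transcripts (36 of 21945 genes). *Ifih1*, the gene of the RNA sensor MDA5, and *Mx1* and *Mx2*, which encode antiviral GTPases, had none.

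Type I interferon binds a receptor made of IFNAR1 and IFNAR2 and activates the kinases JAK1 and TYK2. These lead to the assembly of a complex of STAT proteins and IRF9, which binds the interferon-stimulated response element in the promoters of its target genes. Upstream, RIG-I (*Ddx58*), MDA5 (*Ifih1*) and TLR3 recognise viral RNA, with MAVS as the adaptor of RIG-I and MDA5, and interferon regulatory factors such as IRF3 and IRF7 then switch on interferon genes. Fibroblasts make and answer type I interferon, and many interferon-stimulated genes keep a low level without infection.

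Levels are given in normalised estimated counts, which are Kallisto's estimated counts after Sleuth's scaling between libraries, as a mean on the log scale over the 2 libraries of a group. Only the summaries of each transcript over the 4 libraries were used, so the depth of each library is unknown and no value of a single library can be given. Whether libraries overlapped was instead derived from the difference between the groups and the spread within them, which decides it for most transcripts. Changes are log2(fold change) in KD over WT. They were called at an adjusted p under 0.05 in limma's moderated test with Benjamini-Hochberg adjustment over all 34200 transcripts. These p-values and the intervals measure the spread between these 4 libraries only. Where the variance from assigning reads to isoforms is larger than that spread, which held for 24 of the 64 member transcripts, among them the *Irf3* transcript ENSMUST00000209066.1 (30.1 times) and the *Tlr3* transcript ENSMUST00000209772.1 (318 times), the interval does not cover it. The single tested *Setd2* transcript had a level of 923 in KD and 3680 in WT, with a log2(fold change) of −1.99 (standard error 0.08, adjusted p = 0.0144). All 10 fibroblast markers examined had a tested transcript, with WT levels from 8.93 for *Lum* to 346235 for *Col1a2*, while levels of 6 leukocyte markers in WT lay between 3.82 and 456. Summed over the 6, the level was 782 in KD and 944 in WT. Between the groups, *Ptprc* had a log2(ratio) of −1.58, *Lyz2* of −0.76 and *Csf1r* of −0.51, and *Adgre1* had 6.32 in WT and 0 in KD, whereas *Cd68* had 0.37 and *Itgam* 2.22. Of the fibroblast markers, *Col1a1*, *Col1a2* and *Col3a1* had −0.68, −0.68 and −0.92, and *Pdgfra*, *Fn1* and *Dcn* had 0.60, 0.49 and 0.42. The part of other cells, or of a change in the fibroblasts themselves, in the results was not tested.

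The sequences of promoters were searched for letters that the interferon-activated complex is known to bind. The core of the interferon-stimulated response element was searched as GAAA, any 2 bases and GAAA again, on both strands of the 300 bases from 250 before to 50 after each RefSeq start (GRCm38.p6). It was found in 11 of the 30 tested members with a promoter sequence, beside 3.79% of the 12878 tested genes with one. Counted by promoter, 3.44% of all 32851 held it. A match is a run of letters and was not tested for binding. Only exact matches within these 300 bases were counted, and a tested transcript can start elsewhere. A promoter without a match is therefore not shown to lack the element. A stretch of 30 bases is given for 6 of the 11, namely the 3 whose transcript fell in KD and 3 with other arrangements of the core, 5′ to 3′ on the strand of the gene with the cores in capitals.
Ifit1: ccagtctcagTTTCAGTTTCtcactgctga
Gbp2: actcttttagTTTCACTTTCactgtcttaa
Ddx58: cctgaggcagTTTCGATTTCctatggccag
Isg15: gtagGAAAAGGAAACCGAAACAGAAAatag
Oas1a: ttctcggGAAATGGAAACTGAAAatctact
Cxcl10: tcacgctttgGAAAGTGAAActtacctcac

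The *Ifit1* stretch is at chr19:34640794-34640823 on the plus strand and shows 1 of the 2 cores of that promoter, 85 to 76 bases before the start. The *Gbp2* stretch is at chr3:142620594-142620623 on the plus strand, with the core 59 to 50 bases before the RefSeq start. The tested *Gbp2* transcript starts further upstream, at 142620602, so the core lies within it. In *Ddx58*, at chr4:40239804-40239833 on the minus strand, the core also lies within the transcribed part, at bases 3 to 12 after the start. In these 3 genes the core is read on the strand opposite to the gene. *Isg15*, at chr4:156200871-156200900 on the minus strand, holds 3 overlapping cores in a run from 78 to 57 bases before the start. *Oas1a*, at chr5:120907523-120907552 on the minus strand, holds 2 overlapping cores, 20 to 5 bases before the start. *Cxcl10*, at chr5:92349083-92349112 on the minus strand, has a single core 213 to 204 bases before the start. The other 5 members with the core were *Bst2*, *Gbp3*, *Ifit3*, *Rsad2* and *Stat2*.

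Most of the genes were lower in KD than in WT. The summed level over the tested transcripts was lower in 32 of 36 genes, with a median log2(ratio) of −0.60, beside a median of −0.03 over all 21945 genes, of which 52.5% were lower. Because the members were chosen with earlier results of these data known, their shares beside all genes describe the list and do not test it. In bulk RNA, fewer cells that express a gene and less RNA per cell cannot be told apart. By role, the receptors and kinases had a median of 0.00, the interferon regulatory factors of −0.06 and the RNA sensors and their adaptor of −0.37. The antiviral effectors had −0.79, and the group of antigen presentation genes, GTPases and the chemokine had −1.12. The group of ubiquitin-like and ubiquitin enzymes and their regulators, in which *Ifi35* and *Parp14* were also counted, had −0.75. Differences between roles were not tested. A difference beyond 0.5 on the log2 scale towards lower levels was seen in 20 of 36 genes (55.6%; 19.2% of all genes), and only *Dhx58* was higher by more than that (2.78%; 12.4% of all genes). Of the 64 member transcripts, 11 were called (17.2%, where 9.68% of all transcripts were called). Of these, 8 fell, where 4.24% of all transcripts fell, and 3 rose, where 5.44% of all transcripts rose. Counted by gene, 8 of 36 had a transcript that fell and 3 had one that rose, beside 5.93% and 7.47% of all genes. Expressed relative to *Actb*, whose own main transcript rose by 0.46 on the log2 scale, all changes move down by that amount. In that setting 33 member transcripts fell and 3 rose. Over all 34200 transcripts 9828 were then called, 5.39% of them higher. The calls rest on the trend of the variance with the level that limma fits. Without it 1 member transcript was called, the minor *Irf3* isoform ENSMUST00000107834.1, which was higher in KD, and 0 were called lower. Without moderation 0 were called. In the unmoderated test 17 of the 64 member transcripts and 7132 of all 34200 had an unadjusted p under 0.05. Centring on GC content ended the calls of *Ddx58*, *Dtx3l*, *Ifit1* and *Ifit2*, with log2(fold changes) of −0.65, −0.57, −2.59 and −0.53 and adjusted p-values from 0.0517 to 0.0649, and the likelihood ratio test of Sleuth did not call *Ifit1* and *Adar*.

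**Figure D1:**
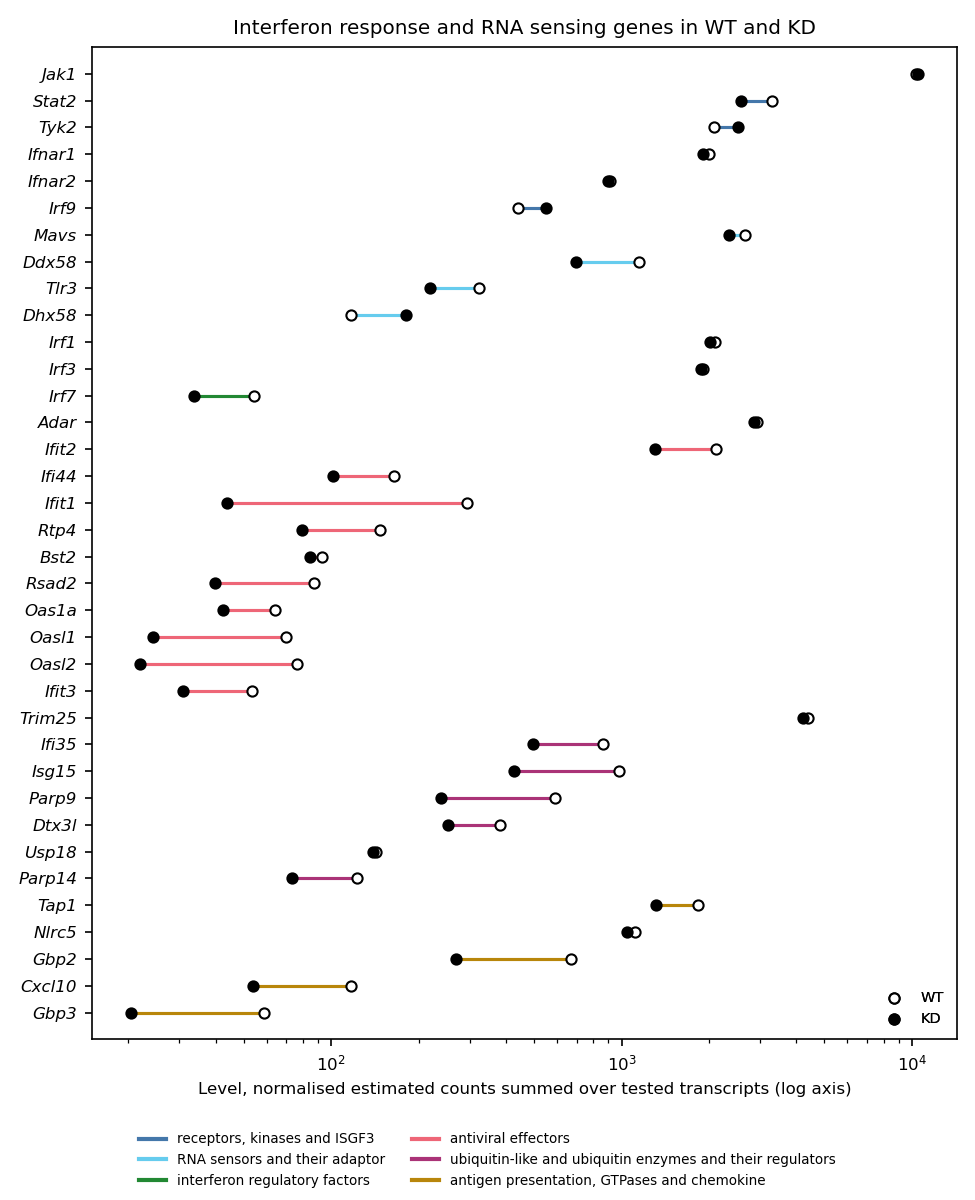
Levels of the 36 genes in WT (open points) and KD (filled points), in normalised estimated counts summed over the tested transcripts on a log axis, grouped by role. *Ifit1*, *Gbp2*, *Parp9* and *Isg15* are among the genes shifted left in KD, *Jak1*, *Adar*, *Usp18*, *Trim25* and *Nlrc5* have points close together, and *Dhx58*, *Irf9* and *Tyk2* are shifted right.

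The libraries of KD and WT could not have overlapped in 35 member transcripts that were lower in KD (54.7%), where the same held for 27.6% of all transcripts. It also held for 10 member transcripts that were higher in KD, where 27.3% of all transcripts did so. In 14 the libraries must have overlapped and in 5 the summaries leave it undecided. At an unadjusted p under 0.05, 23 of the 64 member transcripts were lower and 7 were higher in KD. Over all 34200 transcripts, 4453 were lower and 5203 were higher at that threshold.

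Low levels go with lower values in KD across all genes. Of the 9784 genes with a summed mean level under 100, 61.1% were lower in KD, with a median log2(ratio) of −0.16, and of the 12161 genes at 100 or more, 45.6% were lower, with a median of 0.04. The members had lower medians in both classes. All 10 members under 100 were lower, with a median of −0.95 and a range from −1.79 to −0.15. Of these 10, 6 were antiviral effectors. Of the 26 members at 100 or more, 22 were lower, with a median of −0.27 and a range from −2.75 to 0.63. Of these, *Ifit1* had the lowest value, *Gbp2* and *Parp9* followed at −1.31 and −1.29, and *Dhx58* had the highest.

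**Figure D2:**
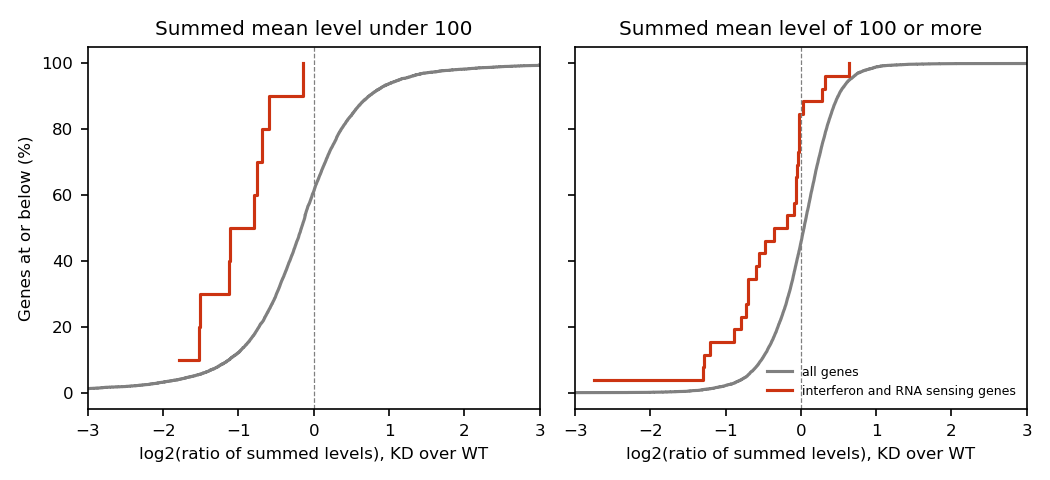
Share of genes (%) at or below each log2(ratio of summed levels) in KD over WT, for all genes (grey) and the members (red), split at a summed mean level of 100 normalised estimated counts. The red line lies left of the grey one in the left panel, and in the right panel over its lower part, with medians of −0.95 against −0.16 and of −0.27 against 0.04; 1 member, *Ifit1* at −2.75, lies furthest left.

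Members of the receptor and signalling group, which receive the interferon signal and carry it to the nucleus, included the member with the highest level, and their sums differed between the groups by log2(ratios) from −0.35 to 0.33. Per kb of transcript, *Jak1* was the highest of all members, with a mean level of 2117 normalised estimated counts per kb. Its level was 10470 in KD and 10306 in WT, with a log2(fold change) of 0.02 (95% confidence interval −0.17 to 0.21). The main transcript of *Ifnar1* had a level of 1829 in KD and 1997 in WT (−0.13, −0.36 to 0.11). The 2 main transcripts of *Ifnar2* had log2(fold changes) of −0.18 (−0.53 to 0.17), with 402 in KD and 455 in WT, and of −0.06 (−0.48 to 0.35), with 408 in KD and 426 in WT. *Tyk2* had a main transcript at 2338 in KD and 1867 in WT, and its log2(fold change) of 0.32 (0.12 to 0.53) missed the threshold with an adjusted p of 0.0746, although the libraries did not overlap. This transcript was called in the Wald test (adjusted p = 0.00676), in the likelihood ratio test and when transcripts with a mean under 100 were left out (adjusted p = 0.0361). The log2(fold change) was 0.14 after centring on GC content and −0.13 relative to *Actb*.

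*Stat2* and *Irf9* encode partners in the complex that binds the response element. The main *Stat2* transcript, ENSMUST00000085708.2, had a level of 2161 in KD and 2896 in WT, and the libraries of the groups did not overlap. Its log2(fold change) of −0.42 (standard error 0.09) had an adjusted p of 0.0513, just past the threshold. The second transcript, with 14.2% of the gene's level, had 427 in KD and 412 in WT (0.05, −0.79 to 0.89). The 3 *Irf9* transcripts had values on both sides of zero. ENSMUST00000134863.7 had a level of 401 in KD and 302 in WT (0.41, 0.03 to 0.78), ENSMUST00000130697.7 had 99.9 and 46.1 (1.11, 0.27 to 1.95), and ENSMUST00000138037.1 had 49.7 and 90.6 (−0.86, −1.67 to −0.05). The last of these made up 20.6% of the gene's level in WT and 9.03% in KD. For none of the 3 did the adjusted p pass the threshold, with values from 0.105 to 0.157.

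Of the RNA sensors, *Ddx58* fell in KD. Its product RIG-I binds short double-stranded RNA with a 5′ triphosphate. The transcript lies on chromosome 4 from 40204849 to 40239828 and had a level of 697 in KD and 1151 in WT, with libraries that did not overlap. The log2(fold change) was −0.72 (standard error 0.13, adjusted p = 0.0443). *Dhx58*, whose product LGP2 is a relative of RIG-I without its signalling domains, was the member with the highest log2(ratio). It had a level of 181 in KD and 117 in WT, with libraries that did not overlap and a log2(fold change) of 0.63 (0.22 to 1.05), but an adjusted p of 0.0783. The Wald test called it, with an adjusted p of 0.0326.

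*Tlr3*, the endosomal sensor of double-stranded RNA, had 2 transcripts. ENSMUST00000034056.11 had a level of 130 in KD and 222 in WT (−0.76, −1.32 to −0.21, adjusted p = 0.0953), while ENSMUST00000209772.1 had 88.3 and 100.2 (−0.18, −0.66 to 0.29). The adaptor *Mavs*, with a high level of 850 per kb, had transcripts at 1439 in KD and 1678 in WT (−0.22, −0.51 to 0.06), and at 903 and 982 (−0.12, −0.38 to 0.14). *Ddx58* was thus the sensor whose change passed the test.

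Among the interferon regulatory factors, the 2 main transcripts of *Irf1*, a factor that interferon induces, had overlapping libraries. They had log2(fold changes) of −0.05 (−0.51 to 0.41), with 1575 in KD and 1634 in WT, and of −0.04 (−0.46 to 0.37), with 399 and 412. *Irf3*, which is activated by phosphorylation and kept ready in most cells, had 1031 in KD and 1132 in WT for one main transcript (−0.13, −0.35 to 0.08) and 819 and 778 for the other (0.07, −0.18 to 0.33). *Irf7*, which interferon itself induces, had a low level of 33.6 in KD and 54.4 in WT. Per kb, *Irf3* and *Irf1* had mean levels of 1026 and 968, and *Irf7* of 22.3.

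**Figure D3:**
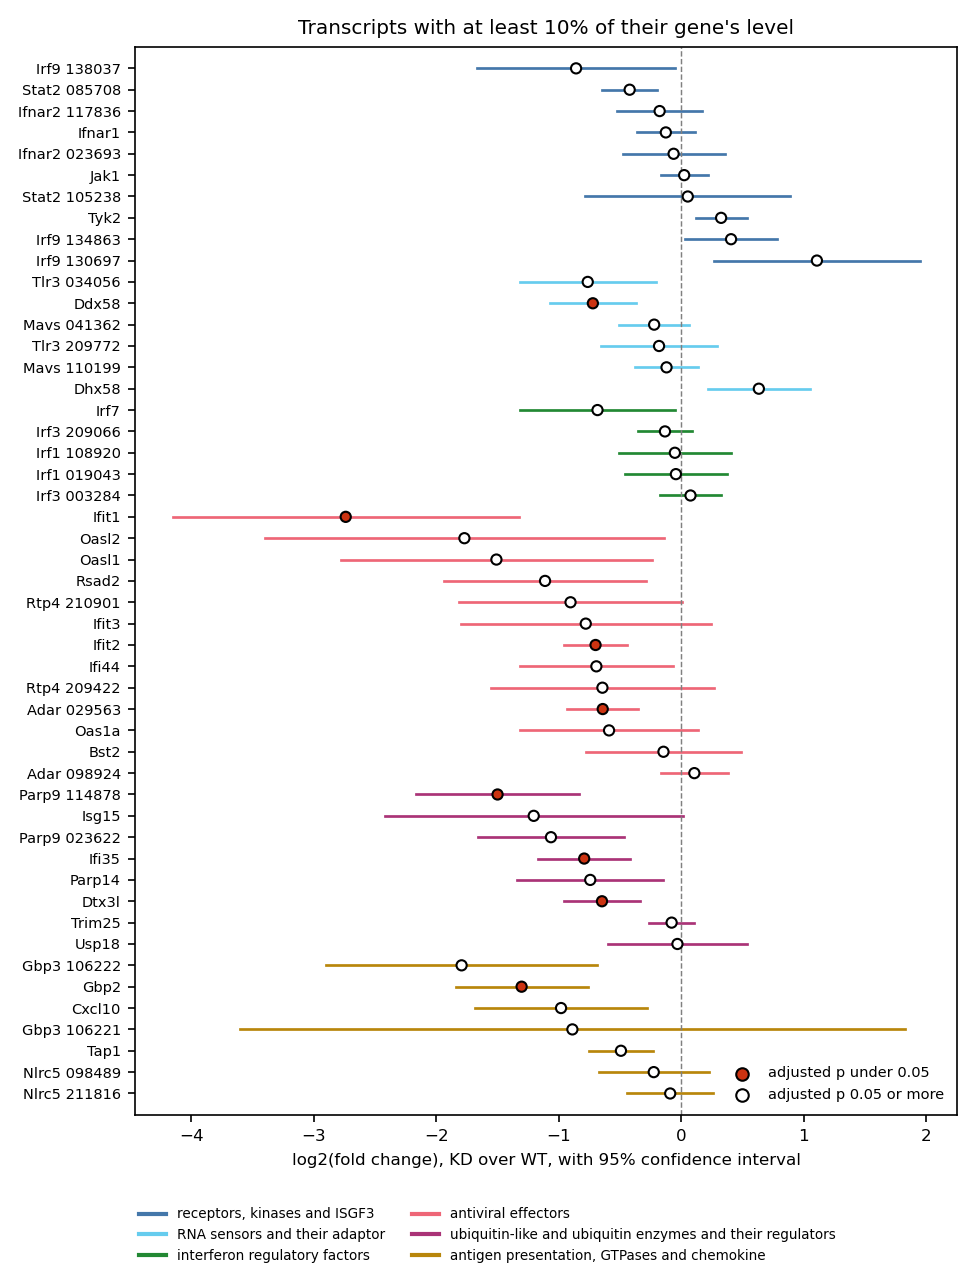
log2(fold change) in KD over WT with its 95% confidence interval for the transcripts that hold at least 10% of their gene's level, coloured by role, with the last 6 digits of the transcript where a gene has several. Filled points have an adjusted p under 0.05 in limma's test; all 8 lie left of zero, from −2.74 for *Ifit1* to −0.64 for an *Adar* transcript.

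The antiviral effectors act against viruses at steps from the translation of viral RNA to the release of virions, and all 11 that were tested had a lower sum in KD, with 3 called. *Ifit1*, which binds viral RNA without the host's cap methylation, fell most. Its transcript, on chromosome 19 from 34640871 to 34650009, had a level of 43.7 in KD and 295 in WT. The log2(fold change) was −2.74 (standard error 0.54, adjusted p = 0.0487), and the libraries did not overlap. The spread within the groups was wide, with a standard deviation of 0.78 on the log2 scale. *Ifit2*, a neighbour and relative of *Ifit1*, had the highest level of the effectors with 1 transcript, 1304 in KD and 2119 in WT, and fell by 0.70 on the log2 scale (standard error 0.10, adjusted p = 0.0279). Its standard deviation within groups was 0.09. *Ifit3*, which lies between both, was at 30.8 in KD and 53.2 in WT.

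*Adar* encodes the enzyme that edits adenosine to inosine in double-stranded RNA, and its transcripts differed. ENSMUST00000029563.13, which starts at 89730748 on chromosome 3, had a level of 476 in KD and 743 in WT and fell by 0.64 on the log2 scale (standard error 0.11, adjusted p = 0.0391). ENSMUST00000098924.8, which starts upstream at 89715022 and holds 71.4% of the gene's level, had 2140 in KD and 1989 in WT (0.11, −0.17 to 0.38). The sum over the gene was 2863 in KD and 2920 in WT. The sum includes a minor transcript, ENSMUST00000107405.5, at 103 in KD and 7.41 in WT, with a standard deviation within groups of 4.03 on the log2 scale. For the transcript that fell, the uncertainty of assigning reads to it, as a variance, was 6.54 times the variance between libraries. The split of reads between the isoforms is therefore uncertain, and the uncertainty of the sum was not computed.

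**Figure D4:**
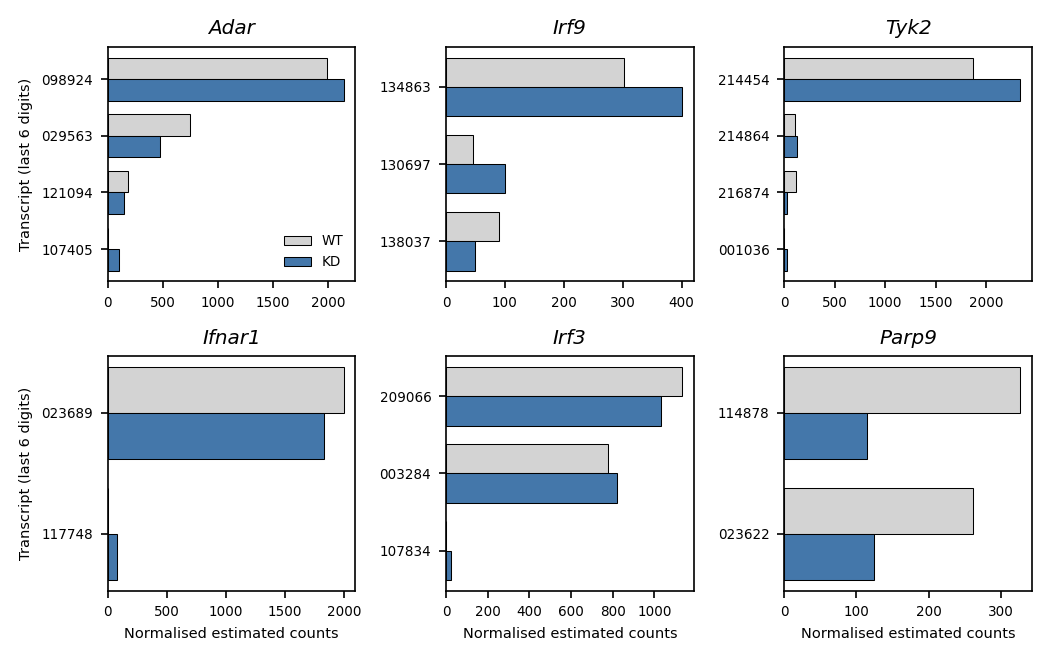
Levels of the tested transcripts of 6 genes in WT (grey bars) and KD (blue bars), in normalised estimated counts, with the last 6 digits of each transcript. In *Adar* the second transcript is lower in KD and the first is not; in *Parp9* both are lower; in *Ifnar1*, *Irf3* and *Tyk2* the lowest transcript has no bar in WT.

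The other effectors did not pass the threshold. Among those with a sum of at least 100, *Ifi44* had a level of 101.2 in KD and 164 in WT (−0.69, −1.32 to −0.07), and *Rtp4*, a chaperone of membrane receptors, had transcripts at 45.4 and 85.5 (−0.91, −1.82 to 0.01) and at 32.1 and 50.5 (−0.64, −1.55 to 0.27). The rest had lower levels. The 2′-5′ oligoadenylate synthetase *Oas1a*, which makes the activator of an RNA-cutting enzyme, had 42.4 in KD and 64.1 in WT, and its relatives *Oasl1* and *Oasl2* had 24.3 and 70.2, and 22.0 and 76.3. *Rsad2*, whose product viperin makes a chain-terminating nucleotide, had 39.95 in KD and 87.0 in WT. *Bst2*, the tether that holds budding virions on the cell, had 84.3 and 93.3, and its libraries overlapped. Apart from *Bst2*, the libraries of these low transcripts, *Oas1a*, *Oasl1*, *Oasl2* and *Rsad2*, did not overlap. Reads shared by relatives such as *Oas1a* and other Oas genes are divided by estimation, which leaves their single values uncertain.

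All 7 genes counted with the ubiquitin-like and ubiquitin enzymes and their regulators, *Ifi35* and *Parp14* among them, had a lower sum in KD. Of these, 3 were called. *Parp9* and *Dtx3l* encode partners in a complex of a macrodomain protein and a ubiquitin ligase, and both fell. The *Parp9* transcript ENSMUST00000114878.7 had a level of 115 in KD and 327 in WT, with a log2(fold change) of −1.50 (standard error 0.25, adjusted p = 0.0381). The other, ENSMUST00000023622.12, had 125 and 262, with −1.06 (−1.66 to −0.47) and an adjusted p of 0.0568. The variance from read assignment was 13.8 times that between libraries for this transcript, and the Wald test, which includes it, gave an adjusted p of 0.616. The main *Dtx3l* transcript had 236 in KD and 370 in WT and fell by 0.65 on the log2 scale (standard error 0.12, adjusted p = 0.0424). Its variance from read assignment was 5.56 times that between libraries, and the Wald test gave an adjusted p of 0.002. These genes lie head to head on chromosome 16 on opposite strands, with the *Dtx3l* transcript from 35926511 to 35939151 and the *Parp9* transcript from 35938470 to 35972605, so that 682 bases of the genome lie within both, and reads from there can be told apart only by strand. *Parp14*, a relative of *Parp9* nearby on the same chromosome, had 73.3 in KD and 123 in WT, a level under 100 on average.

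*Ifi35*, a partner of the regulator NMI, fell from a level of 861 in WT to 496 in KD. Its log2(fold change) was −0.79 (standard error 0.14, adjusted p = 0.0414), and its libraries did not overlap. *Isg15*, the ubiquitin-like protein that is joined to other proteins after interferon, had a larger difference that did not pass the test. Its level was 426 in KD and 983 in WT, and its log2(fold change) was −1.21 (−2.42 to 0.01) with an adjusted p of 0.18. The standard deviation within groups was 0.69 on the log2 scale for *Isg15* and 0.16 for *Ifi35*, although the libraries of *Isg15* did not overlap either. *Usp18*, the protease that removes ISG15, had 139.6 in KD and 142.8 in WT (−0.03, −0.60 to 0.53), and overlapping libraries. *Trim25*, a ubiquitin ligase that acts on RIG-I signalling, had a main transcript at 4041 in KD and 4270 in WT (−0.08, −0.26 to 0.10).

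Of the genes of antigen presentation, the GTPases and the chemokine, *Gbp2* fell. This guanylate-binding protein attacks the vacuoles and membranes of intracellular pathogens. Its transcript, on chromosome 3 from 142620602 to 142638008, had a level of 270 in KD and 668 in WT, with libraries that did not overlap. The log2(fold change) was −1.30 (standard error 0.21, adjusted p = 0.0338). Its neighbour *Gbp3* had a low main transcript at 11.8 in KD and 42.0 in WT and a second at 8.68 and 16.5. *Tap1*, a subunit of the transporter that loads peptides for MHC class I, had 1301 in KD and 1831 in WT (−0.49, −0.76 to −0.23). Its adjusted p was 0.0515, next to that of *Stat2*. *Nlrc5*, an activator of MHC class I genes, had a main transcript at 891 and 949.7 (−0.09, −0.44 to 0.26) and a second at 129 and 151 (−0.23, −0.67 to 0.22). The chemokine *Cxcl10*, which attracts T cells, had a main transcript at 51.5 in KD and 102 in WT and an adjusted p of 0.092.

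The 3 transcripts that rose were minor isoforms. The sums of their genes had log2(ratios) of −0.06 for *Ifnar1*, −0.03 for *Irf3* and 0.27 for *Tyk2*. ENSMUST00000117748.7 of *Ifnar1* had a level of 83.0 in KD, ENSMUST00000107834.1 of *Irf3* had 25.3 and ENSMUST00000001036.10 of *Tyk2* had 29.7, and each was listed at 0 in WT. Their adjusted p-values were 0.0165, 0.0241 and 0.0243, and the size of their fold change is set by the pseudocount and is not given. They held 4.34%, 1.35% and 1.18% of their gene's level in KD. The variance from read assignment was 19.3, 180 and 14.5 times that between libraries. None of the 3 was tested when transcripts with a mean under 10 were left out. That filter gave 11 called member transcripts, all of them lower in KD. Among all 28986 transcripts it kept, 1653 were called lower and 2199 higher. In *Tyk2*, another transcript, ENSMUST00000216874.1, had a lower level in KD, with 23.6 in KD and 113 in WT and an adjusted p of 0.0662.

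Several of the genes are neighbours. *Ifit2*, *Ifit3* and *Ifit1* lie in this order on chromosome 19, and their summed levels had log2(ratios) of −0.70, −0.79 and −2.75. *Gbp3* and *Gbp2* on chromosome 3 had −1.52 and −1.31, *Oasl2* and *Oasl1* on chromosome 5 had −1.79 and −1.53, and *Parp14*, *Dtx3l* and *Parp9* on chromosome 16 had −0.75, −0.59 and −1.29. *Ifnar2* and *Ifnar1*, also neighbours on chromosome 16, had −0.03 and −0.06. Neighbours in these 5 groups were lower together or near zero together. Since 32 of all 36 members were lower, most pairs of members share a direction, and the part of position was not tested.

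The 11 members with the core of the response element all had a lower sum in KD, with a median log2(ratio) of −1.12 and a range from −2.75 for *Ifit1* to −0.15 for *Bst2*. The 19 members whose promoter sequence did not hold these letters had a median of −0.18 and a range from −1.79 for *Oasl2* to 0.33 for *Irf9*, and 16 of them were lower. A transcript fell in 3 of the 11 and in 4 of the 19, beside 5.93% of all genes, and the difference between these 2 counts was not tested. Over all tested genes, those with the core had a median of −0.05 and those without it of 0.01. The letters TTC, any 3 bases and GAA, the core of the element that answers type II interferon, were found in 8 of 30 members. They were found in 8.74% of the 12878 tested genes with a promoter sequence and in 8.30% of all promoters. Those 8 members, *Ifi35*, *Irf1*, *Ifnar1*, *Ifnar2*, *Adar*, *Ifit2*, *Bst2* and *Oas1a*, had a median of −0.11, and the 22 without these letters of −0.69. The members with the core also had lower levels: 6 of the 11 and 3 of the 19 without it had a summed mean level under 100, and the part of level in the difference between the medians was not tested. Roles differed too. *Ifnar1*, *Ifnar2*, *Jak1*, *Tyk2*, *Irf9*, *Irf1*, *Irf3*, *Irf7*, *Tlr3* and *Mavs*, of the receptor, regulatory factor and sensor groups, did not hold the core. Of those groups, only *Stat2* and *Ddx58* did, and *Dhx58* had no promoter sequence. The part of role was not tested either.

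**Figure D5:**
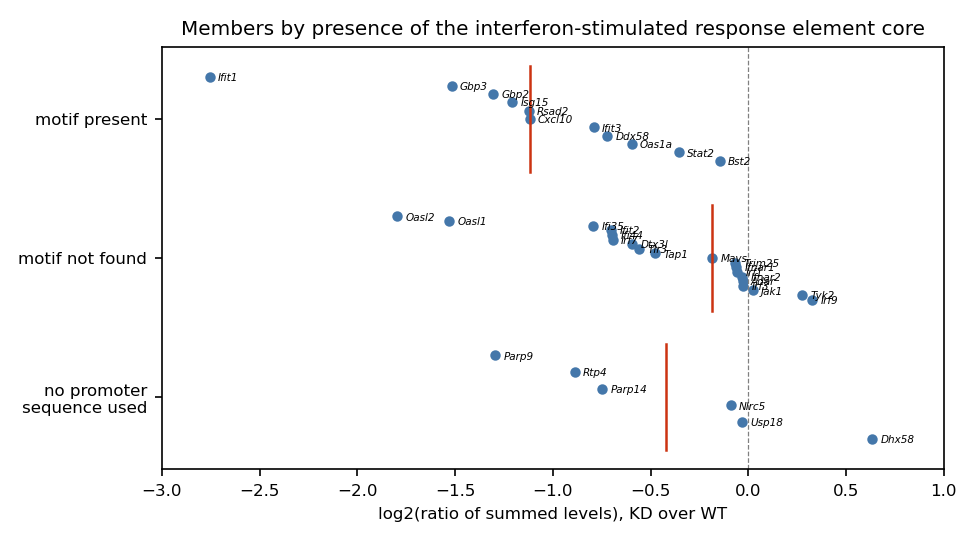
log2(ratio of summed levels) in KD over WT for each member, by whether the core of the interferon-stimulated response element was found in its promoter (11 genes), was not found (19) or no promoter sequence was used (6). Red lines are medians; the 11 genes with the core all lie left of zero around a median of −1.12, and the 19 without it around −0.18.

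Other genes of the interferon pathways were more often lower than higher in KD, and the share with a called rise was near that of all genes. Of 99 listed, 89 had a tested transcript, 15 had a transcript that fell and 6 had one that rose (16.9% and 6.74%, beside the 5.93% and 7.47% of all genes given above). Their summed levels had a median log2(ratio) of −0.29, and 62 of 89 were lower in KD. Of the 68 with a summed mean level of 100 or more, 42 were lower, with a median of −0.20, beside 45.6% and 0.04 for all genes at that level. This list too was chosen with earlier results of these data known, so its shares describe it and do not test it. Ranked by the called transcript that changed most, the genes with the largest falls were *Ddx60*, *Samhd1* and *Lgals9*. By the sum over the gene, *Samhd1* and *Lgals9* had log2(ratios) of −0.80 and −0.73. Other called genes had lower sums, such as *Samd9l* with −1.05 and *Herc6* with −0.98. *Samhd1*, which depletes the nucleotides that viruses need for DNA synthesis, had a transcript at 499.6 in KD and 1445 in WT (−1.53, standard error 0.09, adjusted p = 0.0152) and a second that fell by 0.65 on the log2 scale. A minor transcript of *Lgals9*, a lectin, fell by 1.13 on the log2 scale and the main one by 0.71, from 3313 in WT to 2024 in KD. The called transcript of *Ddx60*, a helicase linked to RNA sensing, was low, at 24.97 in WT, and listed at 0 in KD. The size of its fold change is set by the pseudocount and is not given.

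By the same ranking on single transcripts, the called genes with the largest rises were *Pml*, *Ifitm2* and *Ccl2*. A *Pml* transcript with 28.7% of the gene's level, from the gene that organises nuclear bodies, rose by 1.12 on the log2 scale (standard error 0.11, adjusted p = 0.019), from 292 in WT to 637 in KD, while the sum over the gene was 1627 in KD and 1614 in WT. *Ifitm2*, which blocks the entry of viruses, rose from 7288 to 13015 (0.84, standard error 0.08, adjusted p = 0.019). *Ccl2*, a chemokine for monocytes, rose from 1974 to 3363 (0.77, standard error 0.12, adjusted p = 0.0347), where the member chemokine *Cxcl10* had 51.5 in KD and 102 in WT.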

How the data were processed

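The 4 libraries (TruSeq Stranded mRNA, 2 for KD and 2 for WT) were sequenced on the same lane. The authors trimmed reads with BBDuk, estimated counts for each transcript with Kallisto and compared the groups in Sleuth. The Kallisto index and its strand setting are not given in the sources used here. The deposited means and group effects are natural logs of normalised estimated counts plus 0.5, and the deposited variances split the spread into the uncertainty of read assignment and the remaining spread. The authors also deposited p-values, q-values and a test score for each transcript and, in a gene table that was not used, for each gene.

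No value of a single library was used, so the deposited group effect, which alone carries direction, was taken as the measurement. The deposited p-values are not printed, and the deposited q-values were used only to count the likelihood ratio calls as an alternative. limma 3.58.1 (R 4.3.3) was run on the effect and the variance within groups (2 residual degrees of freedom), with a trend on the mean, over 34200 transcripts, and was tested on simulated data. Group levels were computed as the exponential of the mean plus or minus 0.5 times the effect, minus 0.5, and were summed by gene. Libraries cannot overlap if the effect exceeds the square root of the sum of squares within groups. Of the transcripts, 98.6% were matched to GENCODE M21 (GRCm38), which gives positions, lengths and GC content, and promoter sequences are from RefSeq (GRCm38.p6). Members called in the test are named with levels, error and adjusted p, others with a sum of at least 100 with their interval, and the rest by level. Of the other pathway genes, the 3 largest rises and falls among called genes are named, ranked by the called transcript that changed most. The members and lists were chosen with earlier results of these data known. The alternatives were other tests, filters on low levels and scalings.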

Additional observations from a re-analysis of the deposited data

How the results depend on the processing

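The count of member transcripts called, 11 in limma's test, lay between 9 and 16 under the Wald and likelihood ratio tests, both filters and centring on the median or on GC content. Without a trend in limma, 1 member transcript was called, the minor *Irf3* isoform that was higher in KD. With it, 127 of all transcripts and 0 other pathway genes (43 at an unadjusted p under 0.05) were called. The adjusted p of *Setd2*, at −1.99, was 0.0537 in that setting. The unmoderated test on 2 degrees of freedom called 0 member transcripts (17 at an unadjusted p under 0.05) and 10 of all transcripts (7132). It called 0 other pathway genes (36), with an adjusted p of 0.103 for *Setd2* at −1.99. The Wald test called 6233 of all transcripts and 40 other pathway genes, and GC centring 2128 of all transcripts. The likelihood ratio test called 4266 of all 34200 transcripts. The filter at 10 gave 3852 of 28986 transcripts and the filter at 100 gave 4965 of 18808, so the shares called over all transcripts also changed. Relative to *Actb*, 36 member transcripts (8.33% of them higher, beside 27.3%), 9828 of all transcripts (5.39% higher, beside 56.2%) and 53 other pathway genes (2 with a rise, beside 6 of 21) were called. The median over members was −0.27 for genes with a sum of at least 100, −0.18 with transcripts of at least 100 only and −1.05 relative to *Actb*, where the median over all genes was −0.49. Relative to *Actb* the log2(fold change) turned to −0.13 for *Tyk2*, −0.43 for *Jak1*, −0.0504 for *Irf9* ENSMUST00000134863.7, −0.38 for *Irf3* ENSMUST00000003284.15, −0.35 for *Adar* ENSMUST00000098924.8 and −0.40 for *Stat2* ENSMUST00000105238.9, and with GC centring to −0.0641 for that *Irf3* and −0.0159 for that *Stat2* transcript. *Ddx58*, *Dtx3l*, *Ifit1* and *Ifit2* were not called after GC centring, nor *Adar*, *Ifit1*, *Irf3* and the *Tyk2* isoform in the likelihood ratio test, while *Stat2* and *Tap1* were called under both filters, GC centring and both Sleuth tests. The main *Tyk2* transcript, higher in KD, was called in both Sleuth tests and with the filter at 100, *Dhx58*, also higher, in the Wald test, and the second *Parp9* transcript under both filters. The cause of these changes was not tested. No paired analysis was possible because single libraries were not used; for the same reason leaving out a library, another normalisation and another pseudocount were not run.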
